A study of Mus musculus with 13 samples.

Results

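The interferon response and nucleic acid sensing genes of mouse skin tumours were examined for their difference between tumours of G9a WT and G9a cKO mice. G9a, encoded by Ehmt2, is a histone methyltransferase that marks silent chromatin. The members are a list of 55 named genes of this response. A gene was read where at least 1 probe set of the array carried its symbol (or an alias of it) as the only gene, and the probe set with the highest mean over all arrays stood for the gene. This gave 50 of the 55 members, out of 17097 genes measured in the series. Tmem173 was read under its newer symbol Sting1, and Isg15, Oas1a, Ifi44, Bst2 and Gbp6 were not analysed here.

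The arrays hold total RNA of tumours labelled SCC, taken from G9a WT mice (n = 6) and G9a cKO (conditional knockout) mice (n = 7). Mice of both groups were treated alike. From 8 weeks of age their shaved backs received DMBA, a carcinogen, and TPA, a tumour promoter, weekly for 6 weeks (200 µl in acetone at 0.25 and 0.02 mg/ml), and then TPA alone, 2 times a week, for up to 20 weeks. The sources used here do not give the Cre driver of the knockout, the cells it acts in, strain or sex. The labels do not tie tumours to separate mice, so the p-values measure only the spread between these samples, which may be technical. A tumour can hold keratinocytes, stroma and leukocytes together, and in such bulk samples more cells of a type and more RNA per cell cannot be told apart.

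Interferons are secreted by cells that detect virus or misplaced nucleic acid, and they act through surface receptors, JAK kinases and STAT and IRF transcription factors. Type I and type III interferons act on genes with a promoter element called ISRE, to which IRF9 binds together with STAT2, while interferon-gamma acts mainly on genes with an element called GAS. The induced genes include the sensors themselves, enzymes that act on foreign RNA, and GTPases that attack viruses and intracellular microbes. In skin, keratinocytes, fibroblasts, endothelium and leukocytes can all respond to interferon.

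Values are log2 expression, so a difference of 1 is a 2-fold change. Array medians lay between 5.09 and 5.14, but WT arrays were more spread (SD over probe sets 1.91 to 1.94) than cKO arrays (1.83 to 1.88). The deposited values have an unexplained structure: in 6 pairs of arrays next to each other within a group (all arrays but cKO replicate 1), deviations from the group mean mirrored one another, with correlations over genes of -0.956 to -0.88. Each gene was therefore fitted with limma without and with a term for these pairs, and "rose" or "fell" is used only where both fits gave a Benjamini-Hochberg adjusted p under 0.05. Nonspecific control probe sets had group means from 3.01 to 6.32 and differed between the groups by -0.307 to 0.08. The 18 hybridisation controls were all higher on cKO arrays, by 0.06 to 0.49. Differences of members up to that size lie within those of controls, and 33 of the 50 members had both group means below the brightest nonspecific control. Ehmt2 had probe sets that differed in outcome: number 2 by level was at 8.33 ± 0.19 (SD, n = 6) in WT and 6.01 ± 0.10 (SD, n = 7) in cKO tumours (two-sided exact permutation p = 0.000583), and number 1 at 7.29 ± 0.19 and 7.42 ± 0.04 (exact permutation p = 0.131). Where they lie relative to the deleted part is not given. The exact permutation took all 1716 splits of the arrays as equally likely, which the mirrored pairs may break. Its smallest possible p is 0.000583. The keratinocyte genes Krt5 and Krt14 were bright in both groups, with means from 12.23 to 12.75.

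Most members were higher in cKO tumours. The members were chosen with earlier results of these data known, so the counts below describe them and are no test of the response. Of 50 measured members, 30 were called higher and 2 lower without the pair term, against 25.7% and 20.1% of all genes, and 26 rose and 2 fell by both fits, against 14.4% and 10.3% of all genes called with the pair term. In either direction, 32 members were called without the pair term and 28 with it, against 45.8% and 24.7% of all genes. The difference was positive for 43 of 50 members (86%) and for 53.1% of all genes, and the median difference was 0.44 for members and 0.02 for all genes. Among the 5183 genes in the level range of the middle members (4.61 to 6.24), 34.3% were called higher and 15.3% lower without the pair term, with a median difference of 0.07. Changes over 2-fold were found for 11 members, all of them higher, whereas 1.78% of all genes were called with such a change and 0.936% called higher by that much. The groups did not overlap for 23 members (21 higher, 2 lower), against 23% of all genes (14.1% higher and 8.86% lower).

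**Figure D1:**
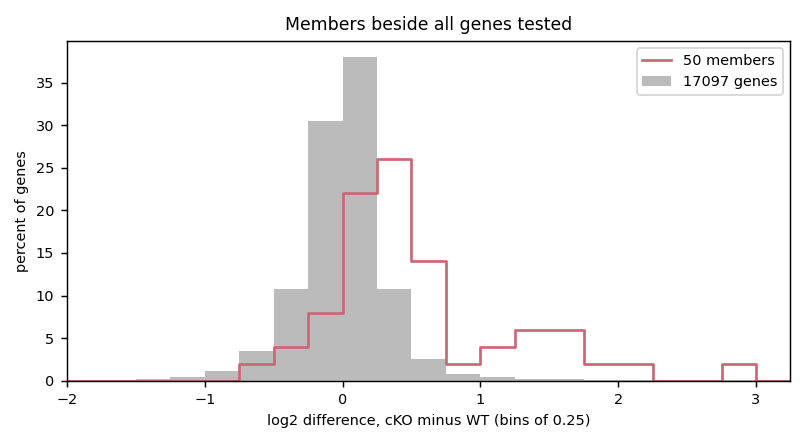
Percent of genes (y axis) by log2 difference between cKO and WT tumours in bins of 0.25 (x axis), for all 17097 genes (grey bars) and the 50 measured members (red line). A difference of at least 0.5 was found for 38% of members and 4.27% of all genes.

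The rise was uneven within every group of roles. The counts by role given below stand beside 14.4% of all genes called higher and 10.3% called lower with the pair term. Members of 1 family could differ widely: Oasl2 and Oasl1, adjacent in the gene order, had differences of 2.13 and 0.17, and Slfn4 and Slfn2, which lie 2 places apart, had 1.99 and -0.59. Of the 26 members that rose, Oas3, Irgm1, Rsad2, Ddx58, Mx1, Sp100, Eif2ak2, Cmpk2 and Irgm2 had differences of 0.21 to 0.49, no larger than the highest of a hybridisation control (0.493). The median of all members (0.44) was also within that size.

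**Figure D2:**
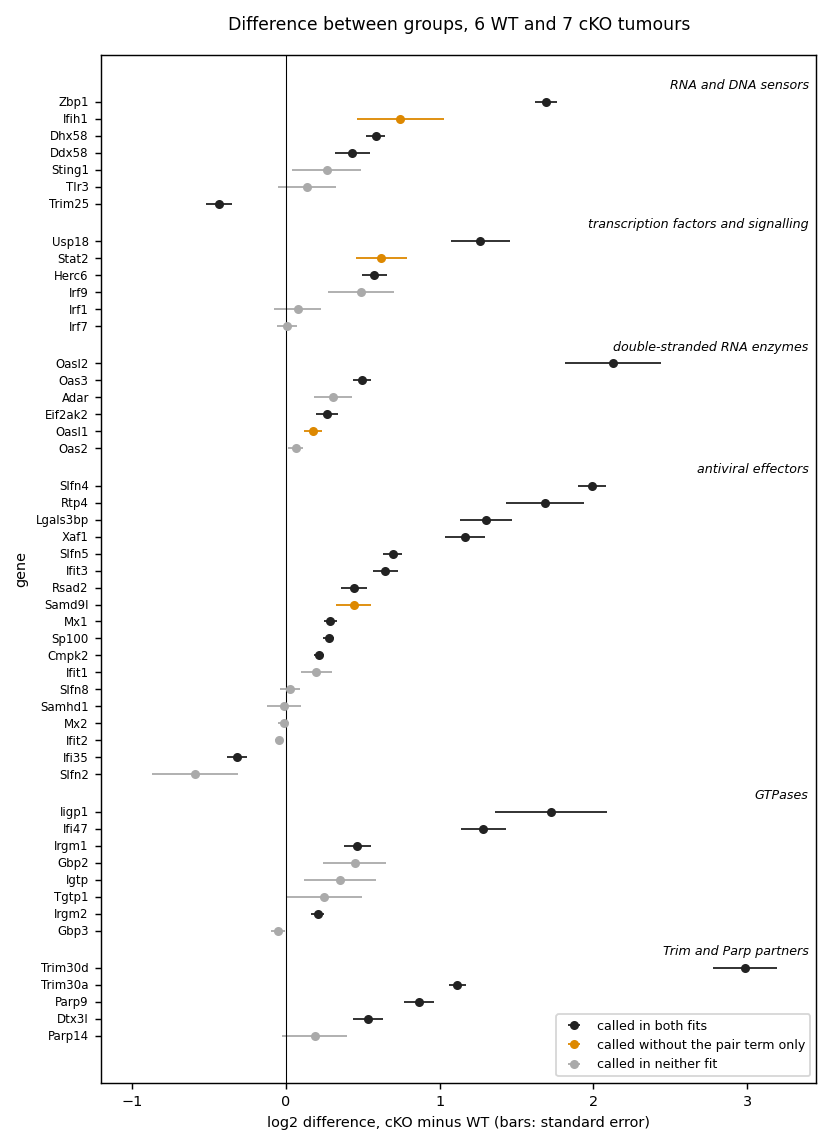
Log2 difference between cKO and WT tumours (x axis) for each of the 50 measured members (y axis), grouped by role, with the standard error of the limma fit without the pair term as bars and the colour giving the calls of both fits. Trim30d is plotted at its measured 2.99, but its WT level is at background and only a bound of 3.34-fold holds. Slfn2 (-0.59, called in neither fit), Trim25 and Ifi35 are the furthest below 0.

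Among sensors, Zbp1, which binds nucleic acid in the left-handed Z form and can start necroptosis, rose most. Its lowest, median and highest values were 4.65, 4.75 and 4.85 in WT tumours and 6.27, 6.39 and 6.76 in cKO tumours. All 7 cKO tumours lay well above every WT tumour, and the spread within each group was small. The difference was 1.69 ± 0.07 (SE), or 3.23-fold, with limma adjusted p of 1.03e-08 without and 5.79e-05 with the pair term. A second Zbp1 probe set rose by 0.28 only, from 5.39 ± 0.10 to 5.67 ± 0.09. It was the brighter one in WT tumours, so the first was chosen through its cKO values and the size of the rise is uncertain.

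The RIG-I-like receptors, cytosolic sensors of viral RNA, did not move as one. Dhx58, the gene of LGP2, which modulates the other receptors of the family, had 4.29, 4.35 and 4.53 (lowest, median, highest) in WT and 4.83, 4.99 and 5.16 in cKO tumours, a rise of 0.58 ± 0.06 (limma adjusted p = 1.11e-05 and 0.00294 with the pair term). Its other probe sets rose by 1.32 and 0.27. Ddx58, the gene of RIG-I itself, had 6.16, 6.49 and 6.80 in WT and 6.58, 7.00 and 7.09 in cKO tumours, with 6 of 7 cKO tumours above the highest WT tumour. That rise of 0.43 (limma adjusted p = 0.0075, and 0.0418 with the pair term) was not shared by a second Ddx58 probe set, which fell by 0.91, from 6.04 ± 0.23 to 5.14 ± 0.09 (limma adjusted p = 8.25e-06 over all probe sets). Ddx58 thus has no single direction on these arrays, and its mean over 3 probe sets differed by -0.10 (limma adjusted p = 0.157). Ifih1, the gene of MDA5, which detects long RNA duplexes, spread widely in both groups, from 4.83 to 6.26 in WT (median 5.43) and from 5.46 to 6.82 in cKO tumours (median 6.42). The groups overlapped, and its difference of 0.74 ± 0.28 passed only without the pair term (limma adjusted p = 0.0473, and 0.157 with it). It also missed the threshold in 9 of the 13 fits that left out 1 array, with differences of 0.63 to 0.79 in those 9.

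The other sensors and their partners showed no shared direction. Tlr3, the endosomal receptor for RNA duplexes, had a difference of 0.14 (limma adjusted p = 0.582), although a dim second probe set rose by 0.26. Sting1, the adaptor of cytosolic DNA sensing, had 4.25, 4.80 and 5.78 (lowest, median, highest) in WT and 4.91, 5.16 and 5.57 in cKO tumours. All cKO values of Sting1 lay within the WT range, and its difference of 0.27 ± 0.22 did not pass (limma adjusted p = 0.352). Trim25, a ubiquitin ligase known for activating RIG-I, fell by 0.43 ± 0.09 (limma adjusted p = 0.00123, and 0.0263 with the pair term). Its values were 7.47, 7.72 and 7.92 in WT and 7.05, 7.31 and 7.44 in cKO tumours, so the highest cKO tumour lay just under the lowest WT tumour. In all, 3 of 7 sensor genes rose and 1 fell by both fits, with Ddx58 counted as a rise by its brightest probe set only.

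Among transcription factors and signalling genes, the largest rise was that of Usp18, the protease that removes ISG15 from proteins and restrains signalling at the type I interferon receptor. It had 3.44, 3.90 and 4.50 (lowest, median, highest) in WT and 4.72, 5.39 and 5.62 in cKO tumours, without overlap, a rise of 1.26 ± 0.19, or 2.40-fold (limma adjusted p = 0.000207, and 0.0102 with the pair term). Usp18 was dim in WT, below the median of the nonspecific controls on 1 of 6 arrays, so the fold is uncertain. Herc6, an ISG15 ligase of the mouse, rose by 0.58 ± 0.08, from 3.78, 3.95 and 4.16 to 4.33, 4.58 and 4.77, also without overlap (limma adjusted p = 0.0001, and 0.00783 with the pair term). Thus 2 of 6 measured genes of this role rose by both fits.

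The interferon-activated transcription factors themselves were not called by both fits. Stat2 had 6.69, 7.01 and 7.49 in WT and 7.23, 7.81 and 8.06 in cKO tumours, with 4 of 7 cKO tumours above the WT range. Its difference was 0.62 ± 0.16 (limma adjusted p = 0.00771, and 0.0513 with the pair term), and a dimmer Stat2 probe set rose by 0.51, from 4.55 ± 0.15 to 5.06 ± 0.14. Adjusted over all probe sets instead of genes, the brighter one passed with the pair term as well (limma adjusted p = 0.0496). Irf9, the DNA-binding partner of STAT2, had 7.00, 7.42 and 7.89 in WT and 7.19, 8.09 and 8.37 in cKO tumours, a difference of 0.49 ± 0.22 that did not pass (limma adjusted p = 0.0806). It passed after quantile normalization (0.61, limma adjusted p = 0.032), without WT replicate 8 (0.58, limma adjusted p = 0.0481) and without cKO replicate 3 (0.61, limma adjusted p = 0.0232). Irf7, the factor that drives interferon-alpha genes and is itself induced by interferon, had 6.49, 6.67 and 6.88 in WT and 6.63, 6.69 and 6.75 in cKO tumours. Its difference was 0.01 ± 0.06, and all cKO values of Irf7 lay inside the WT range. Irf1, a factor of the interferon-gamma response and the brightest member, had a difference of 0.08 ± 0.15 (limma adjusted p = 0.71).

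Of the enzymes that act on RNA duplexes, Oasl2, a synthetase-like antiviral protein, rose most. It had 4.17, 5.01 and 5.94 (lowest, median, highest) in WT and 6.24, 7.29 and 7.56 in cKO tumours, a rise of 2.13 ± 0.31, or 4.37-fold (limma adjusted p = 0.000151, and 0.0082 with the pair term). The groups did not overlap, although the WT tumours themselves varied widely. Oas3, a synthetase of the messenger that activates RNase L, rose by 0.49 from 4.87 ± 0.13 to 5.36 ± 0.09, and Eif2ak2, the kinase PKR that stops translation, by 0.27 from 5.15 ± 0.12 to 5.41 ± 0.13. Oas2 had a difference of 0.06 and Oasl1 of 0.17, the latter called only without the pair term. Adar, which edits adenosine in RNA duplexes, differed by 0.31 and 0.34 on its brighter probe sets and by -0.24 on a dim one, with none called by both fits. Altogether 3 of these 6 enzymes rose by both fits.

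Among the antiviral effectors, Slfn4, a Schlafen gene known mainly from myeloid cells, rose from a WT level at background. Slfn4 had 3.41, 3.54 and 3.62 (lowest, median, highest) in WT and 5.27, 5.49 and 5.91 in cKO tumours, a rise of 1.99 ± 0.09 (limma adjusted p = 1.67e-08, and 9.14e-06 with the pair term). WT levels lay below the median of the nonspecific controls on 4 of 6 arrays, so the size is uncertain, and all 7 cKO tumours were far above it. Slfn5 rose by 0.70 ± 0.06, from 4.30, 4.39 and 4.52 to 4.96, 5.06 and 5.25, but its second probe set fell by 0.15. The other Schlafen members did not pass: Slfn8 differed by 0.03. Slfn2 was at 6.95 to 7.09 in WT replicates 2, 6 and 9 and at 5.55 to 5.67 in WT replicates 4, 7 and 8, with all cKO tumours between 5.39 and 5.92. Its difference of -0.59 ± 0.28 did not pass (limma adjusted p = 0.1), and 3 WT tumours held all the values above the cKO range.

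Rtp4, Lgals3bp and Xaf1 were further effectors that rose over 2-fold. Rtp4, an interferon-induced transport protein, rose by 1.68 ± 0.25, from 4.66, 5.29 and 6.22 to 6.18, 7.12 and 7.27, and 6 of 7 cKO tumours exceeded the WT range. Lgals3bp, a secreted glycoprotein that binds galectins, rose by 1.30 ± 0.17, from 5.20, 5.48 and 6.08 to 6.43, 6.96 and 7.13. Xaf1, a binding partner of the apoptosis inhibitor XIAP, rose by 1.17 ± 0.13, from 5.15, 5.42 and 5.72 to 6.09, 6.69 and 6.85, while a dim second probe set differed by -0.07. For these 3 genes the limma adjusted p lay between 2.03e-05 and 0.000177, and between 0.00301 and 0.00805 with the pair term. Lgals3bp and Xaf1 showed no overlap between the groups, whereas the lowest cKO tumour for Rtp4 (6.18, replicate 3) lay just under the highest WT tumour (6.22, replicate 8).

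Of the Ifit genes, whose products bind foreign RNA ends, Ifit3 rose by 0.65 ± 0.08, from 5.88, 6.03 and 6.16 to 6.44, 6.71 and 6.88 without overlap (limma adjusted p = 4.34e-05, and 0.00548 with the pair term). Ifit1 was dim, with 3.66, 3.89 and 4.40 in WT and 3.99, 4.14 and 4.27 in cKO tumours, a difference of 0.20 that did not pass (limma adjusted p = 0.135), and without WT replicate 8, its highest array, it was 0.29 (limma adjusted p = 0.0084). Ifit2 differed by -0.05. Mx1, an antiviral GTPase, had 4.10, 4.18 and 4.28 in WT and 4.39, 4.46 and 4.62 in cKO tumours, a rise of 0.29, and Mx2 differed by -0.01. Rsad2, the gene of viperin, rose by 0.44 on its brightest probe set and by 1.81 on another of nearly the same mean, from 4.11 ± 0.30 to 5.92 ± 0.72. Its neighbour Cmpk2, a nucleotide kinase, rose by 0.22, and Sp100, of the PML nuclear bodies, by 0.28 and by 0.82 on its second probe set. Ifi35, a regulator induced by interferon, went the other way, from 6.42, 6.55 and 6.91 to 6.21, 6.28 and 6.36, a fall of 0.32 ± 0.07 (limma adjusted p = 0.002, and 0.0292 with the pair term). Samd9l differed by 0.44 (called only without the pair term) and the nucleotide hydrolase Samhd1 by -0.01. In this largest role, 10 of 18 measured genes rose and 1 fell by both fits.

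**Figure D3:**
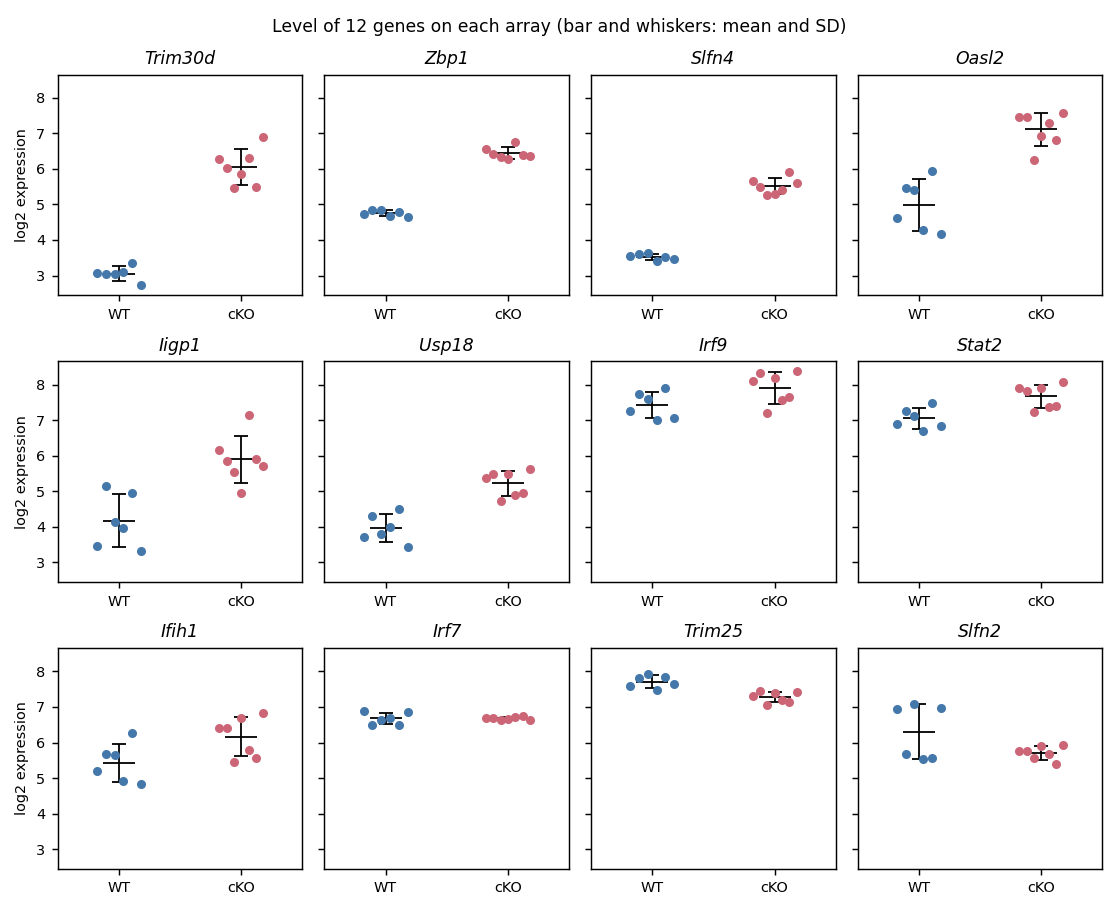
Log2 expression (y axis) of 12 members on each of the 6 WT (blue) and 7 cKO (red) arrays, with bar and whiskers giving mean and SD. The groups of Trim30d, Zbp1 and Slfn4 lie far apart, Oasl2 and Usp18 separate with a wide spread, Ifih1, Stat2 and Irf9 overlap, and the Irf7 groups overlap, with medians of 6.67 and 6.69.

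Trim30d and Trim30a, neighbours on chromosome 7 of a family of interferon-induced TRIM genes, were both higher in every cKO tumour than in any WT tumour. Trim30d had 2.73, 3.05 and 3.36 (lowest, median, highest) in WT, below the median of the nonspecific controls on all 6 arrays, and 5.46, 6.04 and 6.89 in cKO tumours. Only a bound can be given for such a gene. With each WT array set at 4.30, the upper quartile of the nonspecific controls, the cKO level of Trim30d was at least 3.34-fold higher (measured difference 2.99, limma adjusted p = 5.33e-07, and 0.000553 with the pair term). Trim30a, which is known to restrain Toll-like receptor signalling, rose by 1.11 ± 0.06, from 3.59, 3.68 and 3.80 to 4.68, 4.76 and 4.95 (limma adjusted p = 3.26e-08, and 0.000107 with the pair term). A second Trim30a probe set, likewise below the control median on all WT arrays, was at least 1.62-fold higher. The other Trim30d probe sets differed by 0.93 and 0.16. In WT tumours they were brighter (means of 3.59 and 3.73) than the chosen one (3.06), which was chosen through its cKO values. As neither probe nor transcript sequences were compared, signal may be shared between the probe sets of these related genes and is uncertain for each gene alone.

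The promoters of this pair are shown because they carry the same ISRE-like letters in the same surroundings. Both stretches are from RefSeq (GRCm38.p6, minus strand, 5′ to 3′), at chr7:104507841-104507930 for Trim30d and chr7:104465180-104465269 for Trim30a. The capitals mark an ISRE match, here TTTC, any 2 bases and TTTC, the other strand's reading of GAAA, any 2 bases and GAAA. It starts 41 and 36 bases before the annotated transcript start.
Trim30d: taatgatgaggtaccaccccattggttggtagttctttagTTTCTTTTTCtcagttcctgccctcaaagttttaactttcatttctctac
Trim30a: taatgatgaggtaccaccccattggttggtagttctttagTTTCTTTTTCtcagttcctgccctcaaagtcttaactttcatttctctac
The sequences were identical at 89 of 90 bases.

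PARP9 and DTX3L form a complex that attaches ADP-ribose and ubiquitin and aids interferon signalling, and both genes rose. Parp9 had 4.95, 5.09 and 5.32 in WT and 5.63, 6.09 and 6.18 in cKO tumours, a rise of 0.87 ± 0.10, or 1.82-fold (limma adjusted p = 1.87e-05, and 0.00261 with the pair term). Dtx3l, its neighbour in the gene order, rose by 0.53 ± 0.10, from 4.88, 5.08 and 5.43 to 5.48, 5.69 and 5.84 (limma adjusted p = 0.000745, and 0.0155 with the pair term). Parp14, next to Dtx3l on its other side, overlapped fully, with 5.93 to 7.18 in WT and 5.96 to 6.92 in cKO tumours and a difference of 0.19 ± 0.21 (limma adjusted p = 0.493).

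The GTPases, which interferon-gamma induces strongly and which attack the vacuoles of intracellular microbes, divided into 4 that rose by both fits and 4 that did not pass. Iigp1 had 3.33, 4.06 and 5.14 (lowest, median, highest) in WT and 4.95, 5.84 and 7.13 in cKO tumours, with 6 of 7 cKO tumours above the WT range and a rise of 1.73 ± 0.36 (limma adjusted p = 0.00201, and 0.0298 with the pair term). It was below the median of the controls on 2 of 6 WT arrays. Ifi47 rose by 1.28 ± 0.15, from 3.94, 4.37 and 4.86 to 5.42, 5.68 and 6.05, without overlap (limma adjusted p = 2.38e-05, and 0.00368 with the pair term). Irgm1 and Irgm2, whose products regulate the other GTPases of their family, rose by 0.46 and 0.21, from 3.98 ± 0.18 to 4.44 ± 0.16 and from 3.84 ± 0.10 to 4.04 ± 0.04. Gbp2 (0.45), Igtp (0.35) and Tgtp1 (0.25) did not pass (limma adjusted p = 0.0948, 0.243 and 0.439), and Gbp3 lay at background on all 13 arrays.

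The promoters of 3 of these GTPases are shown because a GAS match (TTCNNNGAA) and an ISRE match stand side by side in each, 2 bases apart, while only Irgm2 of the 3 passed the test. The stretches are from RefSeq (GRCm38.p6, 5′ to 3′), at chr11:58199471-58199571 (plus strand) for Igtp, chr11:58214862-58214962 (plus strand) for Irgm2 and chr11:48992274-48992374 (minus strand) for Tgtp1. The first run of capitals is the GAS match and the second the ISRE match.
Igtp: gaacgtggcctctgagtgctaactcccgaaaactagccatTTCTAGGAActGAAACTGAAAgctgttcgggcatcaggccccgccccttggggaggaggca
Irgm2: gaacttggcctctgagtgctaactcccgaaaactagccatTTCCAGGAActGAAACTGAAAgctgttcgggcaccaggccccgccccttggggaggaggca
Tgtp1: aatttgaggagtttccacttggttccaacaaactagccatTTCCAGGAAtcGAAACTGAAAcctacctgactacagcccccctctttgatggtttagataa
Over 90 bases around the ISRE match, Igtp and Irgm2, neighbours in the gene order, were identical at 88 positions, and Igtp and Tgtp1 at 46. The differences of Igtp and Irgm2 between the groups were 0.35 ± 0.24 and 0.21 ± 0.04, so the gene with the smaller difference passed and the one with the wider spread did not.

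ISRE matches lay in the promoters of members that rose and of members that did not pass. RefSeq windows from 250 bases before to 50 bases after the transcript start were found for 43 of the 55 members (39 of the 50 measured). A match to the ISRE letters (GAAA, any 2 bases, GAAA) on either strand, matches that overlap included, lay in the windows of 21 of 43 members (48.8%), against 3.99% of all 27025 genes with a window, and a GAS match lay in 11 of 43 (25.6%), against 9.55%. Of the 18 measured members with an ISRE match, 10 rose by both fits with a median difference of 0.45. Of the 21 without one, 9 rose and 2 fell, with a median of 0.28. Of the 9 with a GAS match, 2 rose and 1 fell (median 0.21), and of the 30 without one, 17 rose and 1 fell (median 0.48). These differences by motif were not tested. They leave out the measured members without a window. Among those, Zbp1, Iigp1, Rtp4, Usp18 and Parp9 rose by 1.69, 1.73, 1.68, 1.26 and 0.87. Mx2, Oas2, Sting1 and Parp14, also without a window, did not pass. Ifit3 and Ifit1, on the plus strand of chromosome 19, are printed because each holds a pair of ISRE matches (capitals), yet Ifit3 rose and Ifit1 did not pass. Ifit3 is at chr19:34583333-34583456 and Ifit1 at chr19:34640745-34640853 (GRCm38.p6, 5′ to 3′).
Ifit3: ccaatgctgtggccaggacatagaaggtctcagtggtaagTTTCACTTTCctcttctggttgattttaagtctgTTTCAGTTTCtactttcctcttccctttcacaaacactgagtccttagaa
Ifit1: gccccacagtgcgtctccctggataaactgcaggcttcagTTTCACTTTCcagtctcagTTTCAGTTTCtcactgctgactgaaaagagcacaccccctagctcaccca
These matches are letters in a sequence and were not tested for binding of any factor.

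The members varied along more than 1 line from tumour to tumour. Averaged over all 50 members, each centred on its mean, WT arrays lay between -0.51 (replicate 9) and -0.06 (replicate 8) and cKO arrays between 0.02 (replicate 3) and 0.38 (replicate 9). WT replicate 8 held the highest WT value for 27 members and its mirrored neighbour, WT replicate 9, the lowest for 26. In the cKO group the order depended on the role. For 7 of 8 GTPases the highest cKO value was that of replicate 6 and for 7 of 8 the lowest was that of replicate 5, its mirrored neighbour; the centred mean of the GTPases was 0.81 in replicate 6 and -0.10 in replicate 5. For the transcription factors and signalling genes, replicate 9 was highest for 5 of 6 (centred mean 0.51) and replicate 3 had the lowest mean (-0.12), while replicates 5 and 6 were at 0.34 and 0.11. This split by role was seen in the values and was not tested. Because neighbouring arrays mirror one another, these tumours are not independent points, and no correlation over them is given.

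**Figure D4:**
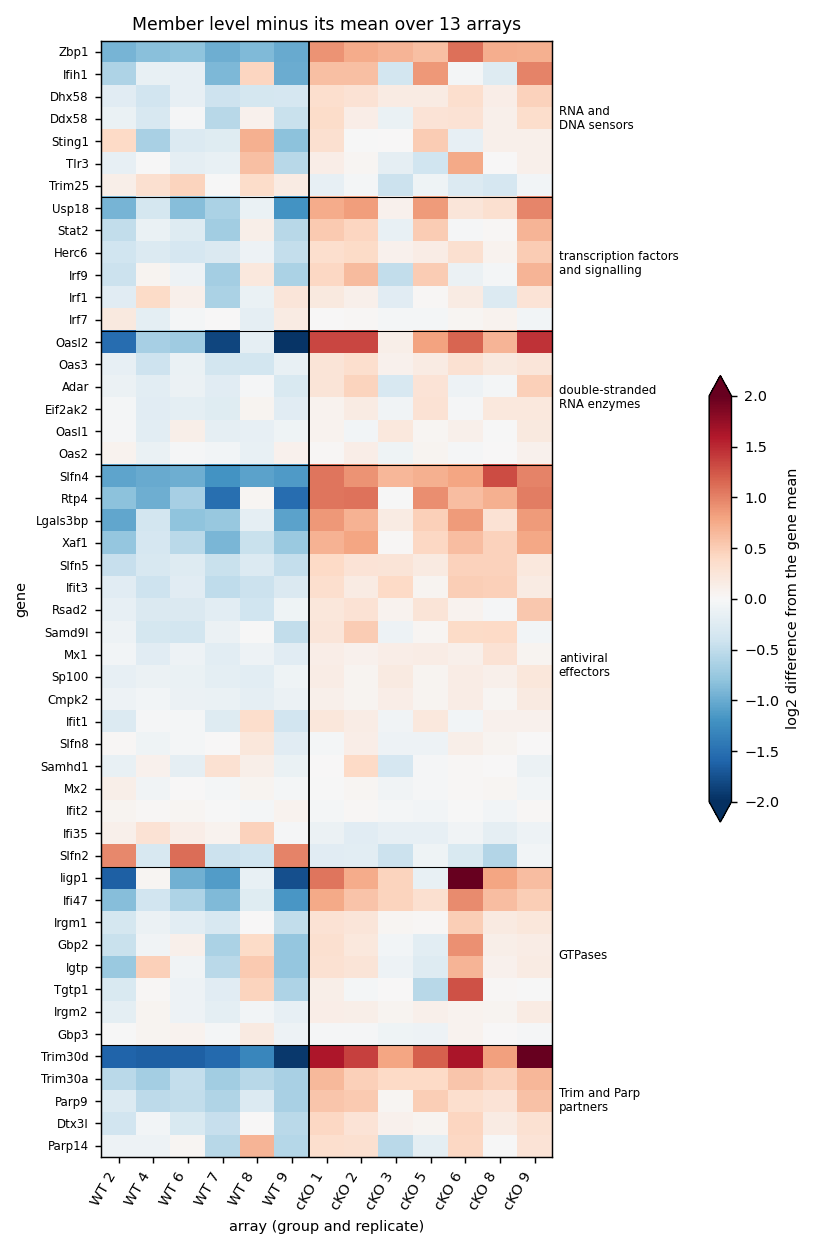
Log2 level of each of the 50 measured members (rows, grouped by role) on each array (columns, 6 WT then 7 cKO) minus the member's mean over all 13 arrays, with colours limited to differences of 2 in either direction. The GTPases are highest in cKO replicate 6 and WT replicate 9 is low for most members.

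The choice of probe set changed the size of many differences. The mean that decided the choice included the cKO arrays. For Zbp1 and Trim30d, the chosen set was dimmer in WT tumours than the gene's other probe sets. Of the 50 measured members, 18 were read by several probe sets, and the one of highest mean did not always give the largest change. Dhx58, Rsad2 and Sp100 had larger differences on the second probe set (1.32, 1.81 and 0.82), while Zbp1, Rtp4 and Trim30d had smaller ones (0.28, 0.18 and 0.93). Opposite directions, both called over all probe sets without the pair term, were found for Ddx58, Slfn5 and Adar.

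**Figure D5:**
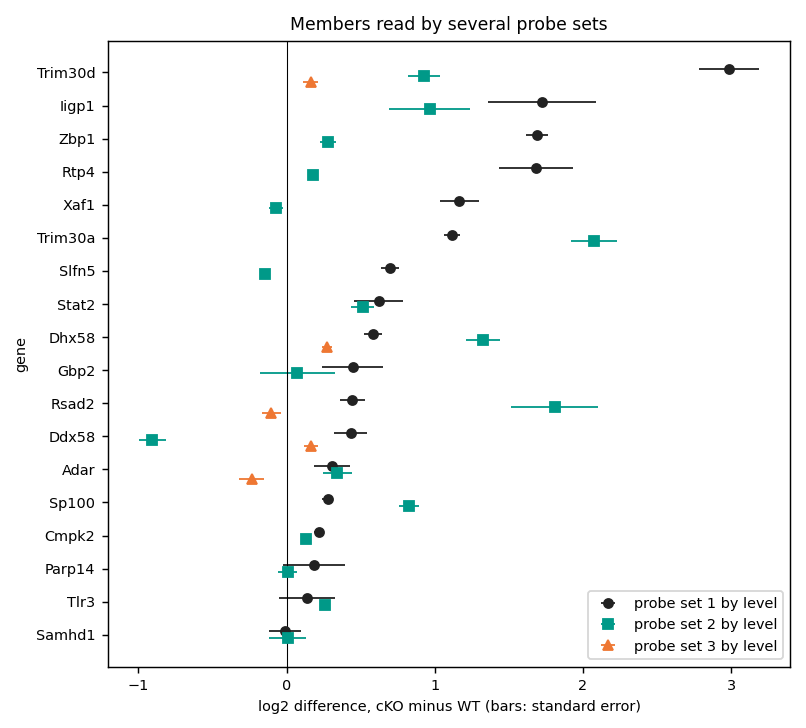
Log2 difference between cKO and WT tumours (x axis, bars: standard error) for each probe set of the 18 members read by several (y axis), numbered by mean level over all arrays. Probe sets of Ddx58 lie on both sides of 0 (0.43, -0.91 and 0.16), whereas those of Zbp1, Dhx58 and Trim30d all lie above it.

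Of 11 measured interferon and receptor genes, 2 were called higher and 3 lower without the pair term, where 25.7% and 20.1% of all genes were. Ifna1 differed by 0.14, Ifna2 by -0.10 and Ifnlr1 by -0.31, each called only without that term. None rose and 1 fell by both fits: Ifna4, which was dim, by 0.22, from 3.89 ± 0.02 to 3.68 ± 0.05. Ifnb1 was at 4.15 ± 0.06 in WT and 4.25 ± 0.06 in cKO tumours, and Ifng (named after its values were seen) at 3.86 ± 0.08 and 3.82 ± 0.08, both dim and not called by either fit. The receptor genes Ifnar1 (0.05), Ifnar2 (0.01) and Ifngr2 (-0.08) did not pass, and Ifngr1 differed by 0.47, from 6.55 ± 0.30 to 7.02 ± 0.20 (limma adjusted p = 0.011, but 0.0769 with the pair term). Counts by both fits, here and in the next paragraph, stand beside 14.4% of all genes called higher and 10.3% called lower with that term. In signal transduction, 1 of 9 genes fell by both fits and none rose. That gene was Jak2, a kinase of the interferon-gamma receptor, with 7.35, 7.78 and 8.41 in WT and 6.57, 6.88 and 7.14 in cKO tumours, a fall of 1.03 ± 0.17 (limma adjusted p = 0.000301, and 0.0118 with the pair term).

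Among 19 sensing adaptors and kinases, 1 rose and 1 fell by both fits. Tbk1, the kinase that activates IRF3 downstream of the sensors, fell by 1.21 ± 0.11, from 6.34, 6.58 and 7.04 (lowest, median, highest) to 5.22, 5.44 and 5.61 (limma adjusted p = 3.29e-06, and 0.00147 with the pair term). Tlr8, which was dim, rose by 0.23, from 4.33 ± 0.06 to 4.56 ± 0.03. Cgas, the cytosolic DNA sensor, Mavs, the adaptor of the RIG-I-like receptors, and Irf3 differed by 0.04, 0.12 and 0.13, and none of the 3 passed. Of 8 nucleic acid turnover genes, none rose and 1 fell: Rnaseh2b, a subunit of the RNase that removes ribonucleotides from DNA, by 0.59 ± 0.07, from 7.87 to 7.34 in the medians. Of 37 further interferon-induced genes, 12 were called higher and 3 lower without the pair term, and 6 rose and 2 fell by both fits, with a median of 0.07. The shares called higher are close to those of all genes (25.7% without and 14.4% with the pair term). The shares called lower are below those of all genes (20.1% and 10.3%). Trim34a (1.09) and Znfx1 (0.59) were among those that rose. Ddx60 lay below the control median on all WT arrays and at a median of 4.05 in cKO tumours, too dim for a fold. The chemokine gene Ccl5 fell by 0.43.

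Interferon also induces antigen presentation genes. Of 11 class I genes, 1 rose and 1 fell by both fits (median difference 0.17). Of 9 class II genes 5 rose and none fell (median 0.52), among them H2-Eb1 by 2.10 and Cd74 by 2.01. H2-Oa of class II differed by -0.15, called lower only without the pair term. With that term, 14.4% of all genes were called higher and 10.3% lower. Differences between the classes, or between them and the members, were not tested.

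Markers of other cell types moved beside the members, and their part in the result was not tested. The counts below stand beside 14.4% of all genes called higher and 10.3% called lower with the pair term. Of 8 general leukocyte genes, 2 rose by both fits (Cd53 by 2.95 and Laptm5 by 0.18), and the median difference of the 8 was 0.10. Lcp1 differed by 1.01 without being called, and the other 5 by -0.02 to 0.10. The log2 of their summed level ran from 7.70 to 8.00 in WT and from 8.16 to 9.41 in cKO tumours. Ptprc, the pan-leukocyte gene CD45, lay below the control median on 6 of 6 WT and 6 of 7 cKO arrays. Of 11 macrophage and monocyte genes 2 rose (Csf1r by 0.26 and Adgre1 by 0.35), both within the differences of hybridisation controls. Cd14 differed by -0.42 and Cd163 by 0.18, each called only without the pair term, and the rest were not called. Their sums were 8.12 to 8.38 and 8.23 to 8.94. Of 10 T and NK cell genes 3 rose and 1 fell (sums of 9.00 to 9.12 and 9.14 to 9.23). Of 4 measured genes of plasmacytoid dendritic cells, known as strong interferon producers, 1 rose, with sums of 9.72 to 10.47 and 9.48 to 10.41. These sums follow mainly Ly6d (means of 9.71 in WT and 9.42 in cKO tumours) and do not measure these cells. The next brightest gene, Tcf4, had means of 6.86 and 7.25. Fibroblast genes (5 of 6 rose, sums of 7.49 to 9.15 and 9.88 to 11.03) and endothelial genes (3 of 5 rose, 6.83 to 8.21 and 8.40 to 9.30) were higher as well. Of 9 keratinocyte genes, Krt5 rose by 0.13 and Krt6a fell by 0.37, with sums of 14.56 to 14.68 and 14.39 to 14.76. Of 6 dendritic and Langerhans cell genes 1 fell, of 3 B cell and 3 neutrophil genes none was called by both fits, and 1 gene each of the 4 muscle, 2 adipocyte and 4 melanocyte genes rose.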

How the data were processed

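Per the submitters' processing notes, RMA gave the deposited log2 expression values. The sources used here state no RMA version or further adjustment, and no scanner file was used. Per the labels' protocols, 25 ng of RNA was amplified with 17 cycles and labelled with biotin. The number of arrays limits the precision. Of 45141 probe sets, 28898 have 1 gene symbol in the platform annotation, covering 17097 genes. The probe set with the highest mean stood for a gene, and dim genes were kept.

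Differences (cKO minus WT) were fitted over all genes in R 4.3.3 using limma 3.58.1 (linear model, moderated by eBayes, without covariates, two-sided, Benjamini-Hochberg over all genes, threshold 0.05), and again with a term for each of the 6 neighbouring pairs. The script was tested on simulated data. A gene below the median of 23 nonspecific controls on all arrays of a group was given a bound. Described by lowest, median and highest value were members with a difference of at least 0.5 called by both fits, members that fell by both, and Ifit1, Mx1, Irf7, Sting1, Ddx58, Ifih1, Stat2 and Irf9. Of each other list, up to 4 genes of smallest p and a few central genes were named. The members and all lists were chosen with earlier results of these data known. Alternatives are given at the end. Same-numbered replicates did not deviate together (correlations of -0.298 to 0.05 over genes). Promoters are from RefSeq (GRCm38.p6). Figures were drawn with matplotlib 3.10.9.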

Additional observations from a re-analysis of the deposited data

Results flagged for a closer look

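A single tumour stood apart from its group, by Dixon's test, for 3 members. Tgtp1 was at 5.22 in cKO replicate 6, where the next highest cKO tumour was at 4.07. Rtp4 was at 6.18 in cKO replicate 3, where the next lowest was at 6.80. Mx1 was at 4.62 in cKO replicate 8, where the next highest was at 4.48. These are 3 of 100 groups of values examined, and chance alone flags about 5 in 100.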

How the results depend on the processing

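Without any single array, 28 to 32 members were called higher and 2 to 3 lower, with a median difference of 0.37 to 0.48. The range was 14 to 17 higher and 11 to 13 lower for the interferon pathway genes outside the members (17 and 12 with all arrays). These genes are the lists of 11, 9, 19, 8 and 37 measured genes described above. With all arrays and no pair term, 25.7% of all genes were called higher and 20.1% lower. Apart from the pair term and the 2-fold threshold, the share of all genes under each alternative is not given, so those counts stand alone. On their chosen probe sets, the 19 described members that rose by both fits, Mx1 and Ddx58 among them, kept their call without any single array. Leaving out genes below the 25th percentile of mean level left 7 pathway genes lower. Leaving out those below the 50th kept 21 members, of which 9 were called higher, against 30 of 50 without the filter. Their median difference was 0.35. With that filter, 5 pathway genes were higher and 7 lower. Array weights, whose estimation stopped before convergence, gave 4 members lower. Replicate numbers do not pair the samples: with the replicate block, over 8 arrays, 24 members were higher and 1 lower, and 11 pathway genes were higher and 6 lower. The same arrays without the block (an alternative chosen after seeing the data) gave 25 members higher and 1 lower, and 7 pathway genes lower. No WT array correlated best with the cKO array of its own number. The pair term left 7 pathway genes higher and 6 lower, against 14.4% and 10.3% of all genes. After quantile normalization, it gave 1 member lower, and 11 pathway genes higher and 5 lower. At an adjusted p under 0.01, 8 pathway genes were higher. Over 2-fold, 11 members were higher and 0 lower, and 2 pathway genes each were higher and lower. Of all genes, 0.936% were called higher by that much and 1.78% in either direction. On these 8 arrays, Ddx58 (0.35) and Ifi35 (-0.31) lost their calls with the block (limma adjusted p = 0.139 and 0.105) and without it (0.0624 and 0.0550), and Trim25 (-0.45) only with it (0.0742, against 0.0157 without). The sign of Ddx58 reversed in the mean over probe sets (-0.10) and on its second probe set (-0.91). Xaf1 (-0.070) and Slfn5 (-0.15) reversed on theirs. Irf7 reversed with median centring (-0.0073), array weights (-0.0080), the replicate block and the same arrays without it (-0.016 in both), and ranged from -0.029 to 0.049 without single arrays. Ehmt2 probe set 1 passed after quantile normalization (0.24, limma adjusted p = 0.0145) and without WT replicate 9 (0.17, limma adjusted p = 0.0486), with a range of 0.074 to 0.17, and probe set 2 ranged from -2.39 to -2.27. Other causes of these shifts were not tested. Many members lie near background, where small differences cannot be told from those of controls.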

Other observations

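Genes near some of the most changed members in the gene order, chosen after values were seen, are given here as values. Trim12c, a TRIM gene near Trim30d, rose by 1.30 ± 0.11 (SE), from 3.91 ± 0.22 (SD, n = 6) to 5.21 ± 0.20 (SD, n = 7), by both fits. In the Schlafen cluster, Slfn3 and Slfn1, which flank Slfn4, rose by 0.43 and 0.20, whereas Slfn9 differed by -0.004 from a brighter level of 5.54. In the region of Parp9 and Dtx3l, Hspbap1 rose by 0.63, from 5.27 ± 0.14 to 5.90 ± 0.06, and Pdia5 by 0.48, while Wdr5b differed by 0.03. In the same region Csta1 differed by -1.58 and Slc49a4 by -0.50, both called only without the pair term (limma adjusted p = 0.00808 and 0.013).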
